A study of Mus musculus with 6 samples.

Results

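The contractile apparatus of smooth muscle was examined through 10 genes, Tagln, Cnn1, Cald1, Tpm1, Tpm2, Lmod1, Myl9, Myh11, Smtn and Des, in mouse induced pluripotent stem cells (iPSCs, body cells returned to pluripotency) with and without serum response factor (SRF). The 10 genes were taken by symbol from the 24421 gene entries of the deposited count table. Bulk RNA-seq libraries were compared between SRF KO iPSCs, whose genotype is given as SRFΔ/Δ, and WT iPSCs, which are SRFf/f, the usual notation of an undeleted conditional allele. There were 3 libraries in each group, and both groups were grown with serum. The labels do not say how the deletion was induced, whether the replicates are separate clones or cultures, or whether feeder cells were present, so that p-values measure the spread between these libraries only.

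Smooth muscle cells shorten when myosin, switched on by phosphorylation of its regulatory light chain, pulls on actin filaments. The genes for this machinery are the textbook targets of SRF, which binds a DNA element called the CArG box and is driven in smooth muscle by the coactivator myocardin and elsewhere by the actin-sensing cofactors of the MRTF family. Several of them, such as Tagln, Cald1 and the tropomyosins, are also used by fibroblasts and other cells with actin stress fibres.

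Total counts were between 26321602 and 36680156 per library. Srf itself was read 113, 84 and 131 times in SRF KO replicates 1 to 3, against 1326, 765 and 1066 times in WT replicates 1 to 3, so that the targeted gene followed the labels in all 6. The pluripotency markers that define iPSCs were abundant in both groups, with a summed level over 15 genes of 6481 to 6617 CPM (the usual depth-normalised count, here with library sizes scaled by TMM) in SRF KO, against 7633 to 8167 CPM in WT. Fold changes are on the log2 scale, SRF KO relative to WT, each with its standard error (SE). Adjusted p-values come from the quasi-likelihood test of edgeR, adjusted by Benjamini-Hochberg over all entries tested and called at 0.05. Of the WT libraries, replicate 2 stood apart, with a chi-square per degree of freedom of 12.9 and 15.3 against replicates 1 and 3, and 3.81 between those. Without it, 8 of the 10 genes described here were again called higher. The filter on low counts kept all 10 genes, and 14778 genes in all.

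Of the 10 genes, 8 were higher in SRF KO, 0 were lower and 2, Smtn and Des, did not pass the threshold. Among all genes tested, 21.2% were called higher and 21.3% lower, 42.4% in either direction. Smtn and Des did not reach an unadjusted p of 0.05 either, and DESeq2 also called 0 of the 10 lower. The median log2 fold change was 0.72 over the 10 genes and -0.01 over all genes tested. The 10 genes together made up 629, 610 and 660 CPM in SRF KO replicates 1 to 3, against 391.6, 406 and 399.8 CPM in WT replicates 1 to 3, a sum 1.59-fold as high. In bulk RNA a larger share of cells with these transcripts cannot be told apart from more transcripts per cell.

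Because SRF acts through the CArG box, the promoters were read for it. RefSeq (assembly GRCm38.p6, the same build as mm10, which the submitters' processing notes name) gave a promoter window of 250 bases before to 50 bases after the transcription start for 8 of the 10 genes. Tagln and Myh11 had no entry. The full box, CC and GG around 6 bases that are each A or T, was found in 1 of the 8, Myl9, against 1.63% of the 32851 windows in the table. The box reads as a box on either strand. Allowing 1 base to depart from it, 4 of the 8 had a match (Myl9, Lmod1, Cald1 and Tpm1), against 21.1% of all windows. The 8 are counted by gene and the background by window. A gene with more than 1 window, such as Cald1, therefore has more chances of a match. The stretches around these matches are printed with the matched 10 bases in capitals, together with that of Cnn2, a relative of Cnn1 that holds a full box and fell in SRF KO. All are in the transcribed direction and lie outside annotated exons, and a further match of Tpm1, inside an exon, is not shown.
Myl9, full box, chr2:156775268-156775347, plus strand: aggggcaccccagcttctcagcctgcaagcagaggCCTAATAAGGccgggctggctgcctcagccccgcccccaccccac
Myl9, box with 1 departure, chr2:156775330-156775409, plus strand: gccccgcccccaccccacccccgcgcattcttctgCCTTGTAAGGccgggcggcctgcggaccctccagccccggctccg
Lmod1, a pair of boxes with 1 departure each, chr1:135324589-135324668, plus strand: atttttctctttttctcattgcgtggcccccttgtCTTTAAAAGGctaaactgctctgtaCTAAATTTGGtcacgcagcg
Cald1, box with 1 departure, chr6:34598266-34598345, plus strand: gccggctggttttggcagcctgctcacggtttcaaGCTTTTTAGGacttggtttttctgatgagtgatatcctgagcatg
Tpm1, box with 1 departure, chr9:67049407-67049463, minus strand: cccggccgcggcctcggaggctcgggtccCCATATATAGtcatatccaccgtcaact
Cnn2, full box, chr10:79988509-79988583, plus strand: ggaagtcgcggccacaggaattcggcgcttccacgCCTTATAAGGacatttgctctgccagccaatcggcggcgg

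The full box of Myl9 starts 161 bases before the transcription start and that of Cnn2 56 bases before it. Of the 10970 genes tested that had a window, 165 held a full box, of which 41 rose and 43 fell in SRF KO. These are 24.8% and 26.1%, beside 20.8% and 21.3% of the genes without a full box. A match is a description of the letters in this window, and binding was not measured.

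The actin-binding proteins of the thin filament were considered first. Tagln encodes transgelin (SM22), an actin cross-linking protein that is among the earliest smooth muscle markers (chr9:45929619-45936058, minus strand, GENCODE M21). Its level was 98.8, 95.2 and 100.7 CPM in SRF KO replicates 1 to 3 and 48.6, 46.7 and 49.8 CPM in WT replicates 1 to 3. All SRF KO libraries lay far above all WT libraries, and the spread within a group was small, with coefficients of variation of 2.85% and 3.25%. The log2 fold change was 1.02 (SE 0.05, edgeR adjusted p 4.36e-08), and 5.28% of the genes tested had a higher one. Tagln shares 94 exonic bases with Pcsk7 and 877 with the antisense RNA Gm48529, both on the opposite strand. Pcsk7 was at 14.6 ± 0.415 CPM in SRF KO, against 11.6 ± 0.934 CPM in WT (SD, n = 3), and whether counting used strand is not given in the sources used here.

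Cnn1 encodes calponin 1, which binds actin and slows the myosin ATPase (chr9:22099216-22109630, plus strand). Its level was 11.6, 12.5 and 13.2 CPM in SRF KO, against 6.60, 6.53 and 8.12 CPM in WT. The groups did not overlap, although WT replicate 3 stood above the other WT libraries. The log2 fold change was 0.82 (SE 0.10, edgeR adjusted p 7.82e-05).

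Cald1 encodes caldesmon, which ties actin to myosin and holds back their interaction at rest, with a long form in smooth muscle and a short form in other cells (chr6:34598500-34775473, plus strand). It had the most counts of the 10 genes, 5903 to 7153 in SRF KO and 3474 to 4329 in WT. Its level was 227, 223 and 247 CPM in SRF KO, against 120, 135 and 121 CPM in WT, so that the lowest SRF KO library was well above the highest WT library, replicate 2. The log2 fold change was 0.89 (SE 0.06, edgeR adjusted p 6.65e-07). Cald1 alone made up 36.2% to 37.5% of the summed CPM of the 10 genes in SRF KO and 30.3% to 33.4% in WT. A count per gene does not separate the long from the short form.

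Tropomyosins are coiled coils that lie along the actin filament and set which proteins may bind it. Tpm1 (chr9:67022590-67049406, minus strand) was at 157, 155 and 167 CPM in SRF KO, against 113, 117 and 112 CPM in WT, a difference of 0.48 on the log2 scale (SE 0.05, edgeR adjusted p 1.58e-05). Tpm2 (chr4:43514711-43523765, minus strand) was at 47.7, 44.7 and 47.1 CPM in SRF KO, against 35.5, 35.3 and 37.5 CPM in WT, a difference of 0.37 on the log2 scale (SE 0.06, edgeR adjusted p 0.000383). Neither gene overlapped between the groups. Their estimated rises were the smallest of the 8. The 95% confidence intervals (0.37 to 0.59 for Tpm1, 0.24 to 0.49 for Tpm2) ended below those of Tagln (0.91 to 1.13), Myl9 (0.83 to 1.16), Myh11 (0.83 to 1.30) and Cald1 (0.76 to 1.03). The interval of Lmod1 (0.32 to 0.93) overlapped both, and that of Cnn1 (0.59 to 1.04) narrowly overlapped that of Tpm1. The rises of the tropomyosins are therefore not separated from that of Lmod1. Tropomyosin genes make both muscle and non-muscle forms from alternative exons, which counts per gene do not tell apart.

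Lmod1 encodes leiomodin 1, which starts actin filaments in smooth muscle (chr1:135324807-135368065, plus strand). It was the gene with the fewest counts of the 10 in WT replicate 3, at 69, and its level was 4.24, 4.23 and 4.87 CPM in SRF KO, against 3.20, 2.99 and 2.41 CPM in WT. The groups did not overlap, and the spread of 14.4% in WT was the widest of the 10 genes. The log2 fold change was 0.63 (SE 0.14, edgeR adjusted p 0.00368), with a 95% confidence interval of 0.32 to 0.93.

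**Figure D1:**
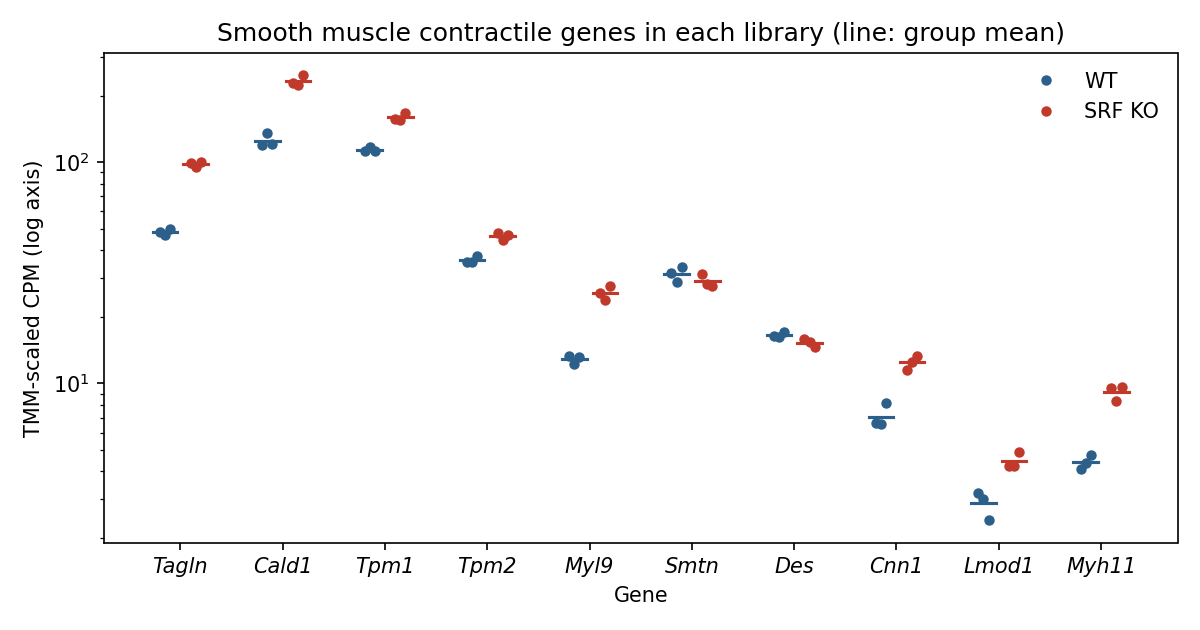
Level of each of the 10 genes in every library, as TMM-scaled CPM on a log axis, with WT in blue, SRF KO in red and a line at each group mean (n = 3). For 8 genes all red points lie above all blue points, while Smtn overlaps and the SRF KO points of Des, 14.6 to 15.8 CPM, lie just below its WT points, 16.2 to 17.0 CPM.

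The motor came next. Myl9 encodes the regulatory light chain whose phosphorylation starts contraction (chr2:156775420-156781658, plus strand). It was at 25.5, 23.9 and 27.6 CPM in SRF KO, against 13.3, 12.3 and 13.1 CPM in WT. Every SRF KO library was above every WT library, and the log2 fold change was 0.99 (SE 0.08, edgeR adjusted p 1.70e-06). Myh11 encodes the smooth muscle myosin heavy chain, the most restricted marker of mature smooth muscle (chr16:14194535-14291372, minus strand). Its level was 9.55, 8.31 and 9.68 CPM in SRF KO, against 4.11, 4.35 and 4.74 CPM in WT, on 112 to 280 counts per library. It had the largest log2 fold change of the 10, 1.06 (SE 0.11, edgeR adjusted p 1.14e-05), with 4.90% of all genes tested above it. The intervals of Myh11, Tagln, Myl9, Cald1, Cnn1 and Lmod1 overlap, so that these rises are not ordered by these data.

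The remaining genes were Smtn and Des. Smtn encodes smoothelin, an actin-associated protein of contractile cells (chr11:3517523-3540612, minus strand). It was at 31.2, 28.0 and 27.7 CPM in SRF KO, against 31.5, 28.6 and 33.7 CPM in WT. The groups overlapped, and the log2 fold change was -0.11 (95% confidence interval -0.28 to 0.06, edgeR adjusted p 0.274). Without WT replicate 2 it became -0.16 with an edgeR adjusted p of 0.0443, and 1 of the 10 genes was then called lower. Smtn shares 556 exonic bases with Gm11946 on the opposite strand.

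Des encodes desmin, the muscle intermediate filament protein that links dense bodies (chr1:75360329-75368579, plus strand). Its level was 15.8, 15.4 and 14.6 CPM in SRF KO, against 16.5, 16.2 and 17.0 CPM in WT. The 3 SRF KO values were just below the 3 WT values, but the log2 fold change of -0.12 (95% confidence interval -0.28 to 0.04) was not enough for a call (edgeR adjusted p 0.211). Des shares 220 exonic bases with Gm15179 on the opposite strand, which had at most 1 count in any library. Values that do not overlap between the groups were found for 9 of the 10 genes, and for 52.7% of all genes tested. With SRF KO as the higher group this was so for 8 of the 10 genes, and for 26.2% of all genes tested. For Smtn and Des the interval ended at 0.06 and 0.04, below the interval of each of the 8 genes that rose.

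Levels per kilobase of exon (the union of exons in GENCODE M21) put the genes side by side, in an order that holds for this length only. For Tpm1 the union is 4780 bp and the longest transcript 2890 bp, against 1595 bp for both in Tagln. A shorter length raises the level of Tpm1, so its place relative to Tagln and Cald1 is not settled. In WT, Tagln was highest at 30.3 ± 0.986 CPM per kilobase, followed by Cald1 at 24.5 ± 1.70 and Tpm1 at 23.9 ± 0.571 (SD, n = 3), and the ranges of Cald1 and Tpm1 overlapped. Tpm2, Myl9, Smtn, Des and Cnn1 followed at 15.1, 11.4, 8.03, 5.47 and 2.81 CPM per kilobase, each clear of its neighbour. Lmod1 at 0.726 ± 0.105 and Myh11 at 0.666 ± 0.0478 CPM per kilobase (SD, n = 3) were lowest and overlapped. In SRF KO, Tagln rose to 61.6 ± 1.75 and Cald1 to 45.5 ± 2.53 CPM per kilobase (SD, n = 3), and Myl9 at 22.8 stood above Tpm2 at 19.5. Myh11 and Lmod1 stayed lowest, at 1.39 and 1.13 CPM per kilobase, and Des and Cnn1, at 5.04 and 4.94, overlapped.

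Many of these genes have relatives used outside smooth muscle, and 5 families were compared. The list of relatives, which also includes tropomodulins, leiomodins, smoothelin-like genes and vimentin, had 17 of 20 genes tested, of which 3 were higher and 9 lower, the median log2 fold change being -0.13. The count of lower genes was 8 by DESeq2 and when any single library other than WT replicate 2 was left out, the call lost being that of Myh9. In the myosin regulatory light chains, Myl12a and Myl12b fell by 0.33 and 0.46 on the log2 scale where Myl9 rose. Myl12a and Myl12b are near-identical neighbours whose reads may be shared, so that their single values are uncertain. In the heavy chains, the non-muscle genes Myh9, Myh10 and Myh14 fell by 0.13, 0.40 and 0.55 where Myh11 rose (edgeR adjusted p 0.0467, 3.59e-05 and 0.000316). The call of Myh9 was lost in 9 of 12 alternative fits, over which its adjusted p from edgeR or DESeq2 ran from 0.00767 to 0.189.

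Cnn2 and Cnn3, the calponins of non-muscle cells, fell by 0.81 and 0.48 on the log2 scale (edgeR adjusted p 6.16e-05 and 8.50e-06). Cnn2 was at 29.7 ± 3.96 CPM in SRF KO, against 52.1 ± 5.73 CPM in WT (SD, n = 3). The transgelins and tropomyosins moved differently: Tagln2 and Tpm4 rose by 0.33 and 0.35, Tagln3, with under 2 CPM in every library, fell by 1.54, and Tpm3 at 0.07 was not called (edgeR adjusted p 0.2585). Tpm3 has processed gene copies in the genome that can take its reads. Vimentin, the mesenchymal intermediate filament gene, rose by 0.82 (SE 0.06, edgeR adjusted p 1.26e-06), from 234 ± 12.3 to 412 ± 27.7 CPM (SD, n = 3).

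**Figure D2:**
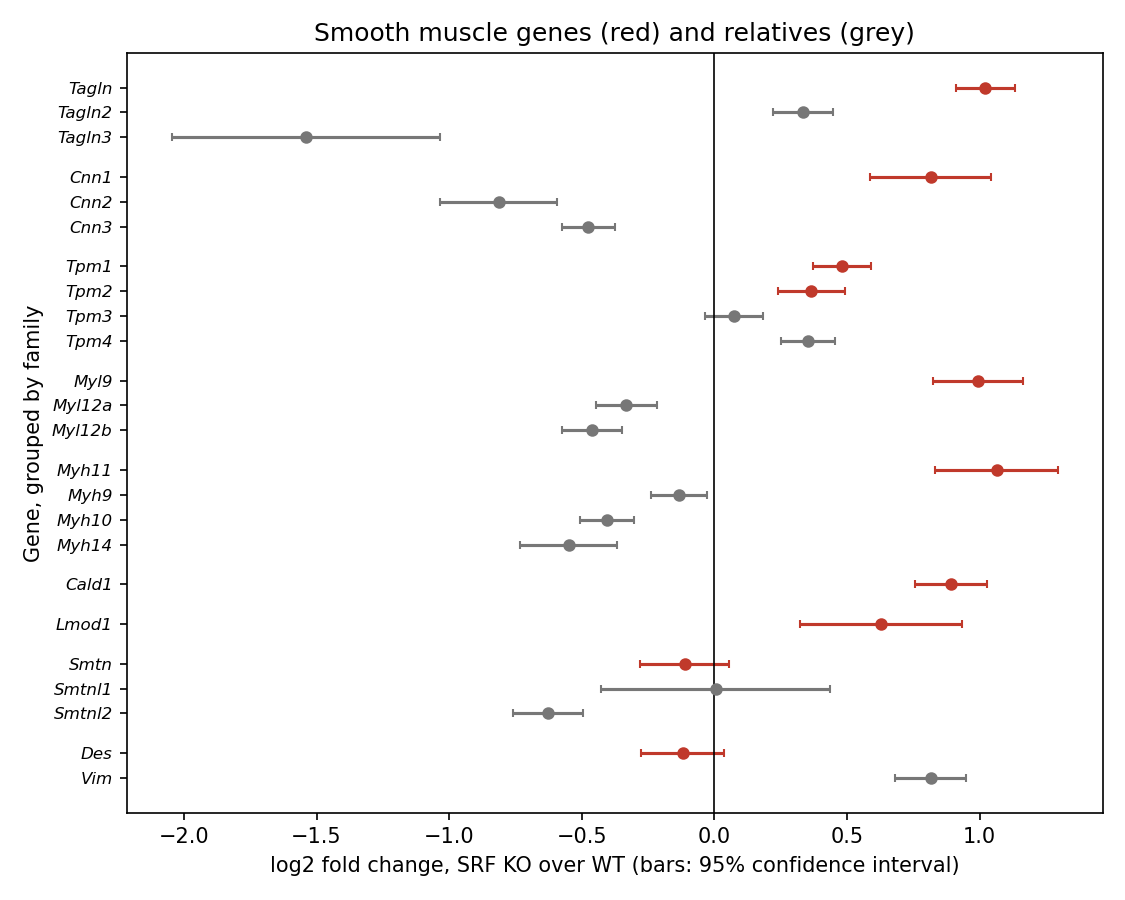
Log2 fold change of SRF KO over WT for the 10 genes (red) and their relatives (grey), grouped by family, with 95% confidence intervals from the edgeR fit. Tagln, Cnn1, Myl9 and Myh11 lie right of 0 near 0.8 to 1.1 while Tagln3, the other calponins, the other light chains and the other heavy chains lie left of 0, and Tagln2 and Tpm4 lie right of 0.

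The share of a family held by its smooth muscle gene does not depend on how libraries are scaled. Myl9 made up 19.1%, 18.2% and 19.7% of the light chain counts per kilobase in SRF KO and 8.27%, 8.38% and 8.28% in WT. Tagln made up 41.5%, 41.0% and 41.5% of the transgelins in SRF KO and 30.0%, 30.7% and 29.8% in WT. Both shares were higher in each SRF KO library than in any WT library, and the group means lay 10.7 and 11.2 percentage points apart. Without the division by length the difference for Myl9 was 5.85 points.

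Cnn1 and Myh11 remained minor members of their families. The share of Cnn1 was 2.73% ± 0.148 in SRF KO, against 1.12% ± 0.158 in WT, and that of Myh11 was 1.46% ± 0.0782 and 0.618% ± 0.0378 (SD, n = 3). Tpm1 and Tpm2 together held 20.4% ± 0.772 of the tropomyosins in SRF KO, against 17.4% ± 0.521 in WT (SD, n = 3). In all 5 families the groups did not overlap for the smooth muscle gene. The two-sided exact permutation test gave p of 0.1, the smallest that 3 libraries against 3 allow, so that it cannot pass 0.05. Among the relatives, the shares of Myh9 (75.3% in WT, 78.2% in SRF KO) and Tpm4 (22.6% and 24.9%) also rose without overlap. Those of Tagln2, Tagln3, Tpm3, Myl12a, Myl12b, Myh10 and Myh14 fell without overlap, and those of Cnn2 and Cnn3 overlapped. The family totals went both ways, with the transgelins 1.48-fold and the tropomyosins 1.15-fold of the WT sum of CPM, and the calponins, light chains and heavy chains at 0.718, 0.821 and 0.875 of it.

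**Figure D3:**
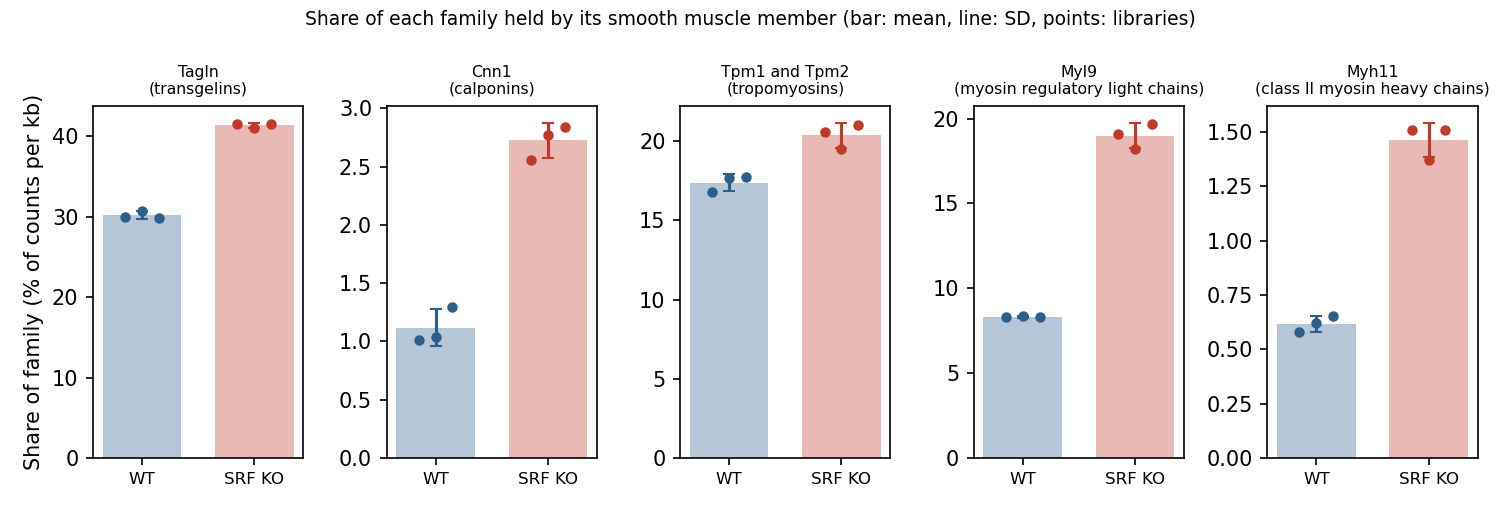
Share of each family's counts per kilobase held by its smooth muscle gene or genes, in percent, by group (bar: mean, line: SD, points: the 3 libraries). In each panel the SRF KO points lie above the WT points, from 8.31% to 19.0% for Myl9 and from 0.618% to 1.46% for Myh11 as group means.

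Other genes of smooth muscle did not move as one. Of 25 further contractile and structural genes, 22 were tested, 8 were higher and 8 lower, and the median log2 fold change was 0.15. Beside this and each list count below, 21.2% of all genes tested were called higher and 21.3% lower. The smooth muscle actins Acta2 and Actg2 rose by 1.23 and 1.33 on the log2 scale (edgeR adjusted p 4.72e-07 and 1.64e-06). Actins are close relatives, so their single values depend on the counting rule. Acta2 was at 196, 166 and 202 CPM in SRF KO, against 74.6, 78.8 and 88.1 CPM in WT. Mylk, the kinase that phosphorylates the light chain, rose by 1.58 (edgeR adjusted p 6.81e-07), from 2.88 ± 0.325 to 8.58 ± 0.0806 CPM (SD, n = 3). The adhesion genes Flna and Vcl both fell by 0.25 on the log2 scale (edgeR adjusted p 0.00608 and 0.00174). Flna and Vcl were chosen after their values were seen.

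Genes that control contraction had 7 higher and 5 lower of 23 tested and a median log2 fold change of -0.01. Over all genes tested the median was also -0.01, with 21.2% called higher and 21.3% lower, so the list is not set apart by its counts. Besides Mylk, the cGMP-dependent kinase Prkg1 and the calcium channel Cacna1c rose by 1.36 and 0.67 and the calmodulin gene Calm2 fell by 0.34 on the log2 scale (edgeR adjusted p 1.26e-05, 0.00252 and 0.00328). Rhoa, Rock1 and Rock2, of the RhoA pathway that keeps the light chain phosphorylated, had log2 fold changes of -0.12, -0.13 and 0.05 and were not called (edgeR adjusted p 0.0654, 0.306 and 0.667; chosen after their values were seen).

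Of 27 regulators of smooth muscle genes tested, 14 were higher and 5 lower, with a median log2 fold change of 0.20. The lower genes include Srf itself, the gene deleted in SRF KO. Those with the smallest p were Srf, Prrx1, which is also in the fibroblast list, and the endoderm and heart factors Gata4 and Gata6, which rose by 3.95 and 3.66. Myocd, the gene of myocardin, had 6, 6 and 6 counts in SRF KO and 3, 4 and 3 in WT and did not pass the filter on low counts. The MRTF genes, listed as Mkl1 and Mkl2, had log2 fold changes of 0.19 and 0.05 and were not called (edgeR adjusted p 0.0898 and 0.535; chosen after their values were seen).

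Markers of other cell types that express these genes moved beside them. Of 27 fibroblast markers tested, 25 were higher and 1, Fbln1 (chosen after its value was seen), was lower, with a median log2 fold change of 1.08. Prrx1, Fbn1, Col5a2 and Col3a1 rose by 1.13, 1.38, 1.22 and 1.09. The summed level of the 28 listed fibroblast genes was 1969, 1751 and 2133 CPM in SRF KO, against 930, 889 and 1039 CPM in WT. The 25 rises ranged from 0.57 to 1.49, and 6 of the 8 smooth muscle rises fell within that range, all but those of Tpm1 and Tpm2. SRF KO replicate 2 was the lowest of its group in the fibroblast sum, in the sum of the 10 smooth muscle genes and in 7 of the 10. WT replicate 2 had the lowest fibroblast sum of its group but the highest sum of the 10 genes, 406 CPM, although it was lowest in 6 of the 10. The part of fibroblast-like cells in the rise of the smooth muscle genes was not tested. Of 28 fibroblast markers only Tcf21 had at most 3 counts in every library, and each of the others had more than 3 in at least 1 library.

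Mural cell and pericyte markers, the cells of vessel walls, had 8 of 12 genes tested, with 7 higher and 1 lower, Notch3 (chosen after its value was seen). Mcam, Pdgfrb, Anpep and Rgs5 rose by 0.80, 1.01, 0.35 and 1.62 on the log2 scale, and Pdgfrb is also in the fibroblast list. The sum was 240 to 258 CPM in SRF KO, against 180 to 215 CPM in WT. Rgs5 was under 0.7 CPM in every library, and Higd1b had at most 3 counts in each. Their part in the result was not tested.

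Markers of the other muscle types were measured as well. The cardiac sum over 15 genes was 13.8 to 15.5 CPM in SRF KO, against 16.2 to 16.9 CPM in WT, with 2 higher and 2 lower of 8 tested. The count of higher genes was 1 by DESeq2, and also 1 when any single library other than WT replicate 3 was left out. Actc1 and Nppa had at most 3 counts in any library. Tnnc1 and Nppb rose by 0.91 and 0.70, and Myl4 and Myh6 fell by 0.81 and 0.48 on the log2 scale. Tnnc1 had only 5 to 14 counts per library and passed the threshold narrowly (edgeR adjusted p 0.0470). Of 15 skeletal markers 4 were tested, 1 higher (Acta1, 0.80) and 2 lower (Mylpf, -0.54, and Myh3, -0.69), or 2 higher without WT replicate 3. The skeletal sum was 109 to 113 CPM in SRF KO, against 150.0 to 163 CPM in WT. Most of it was Mylpf, a fast skeletal myosin light chain gene, at 104 and 151 CPM on average. Per kilobase Mylpf was at 128 ± 2.38 CPM in SRF KO, against 185 ± 9.09 CPM in WT (SD, n = 3), above each of the 10 smooth muscle genes. The myogenic factors Myod1, Myf5 and Myf6 had at most 3 counts in each library.

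Primitive and visceral endoderm markers had the highest median of the lists described. Of 20 tested, 19 were higher and 1, Apoe (chosen after its value was seen), was lower, the median log2 fold change was 3.64, and the sums were 4850 to 5212 CPM in SRF KO, against 1226 to 1317 CPM in WT. Cubn, Lrp2, Dab2 and Col4a1 rose by 5.88, 3.89, 3.68 and 3.36. Their part in the rise of the smooth muscle genes was not tested. Of 15 pluripotency markers 1 was higher and 6 lower, with a median of -0.15, and without WT replicate 2 the count of lower genes was 10. Nanog, Tfcp2l1, Esrrb and Dppa5a fell by 0.79, 0.70, 0.49 and 0.42 on the log2 scale.

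**Figure D4:**
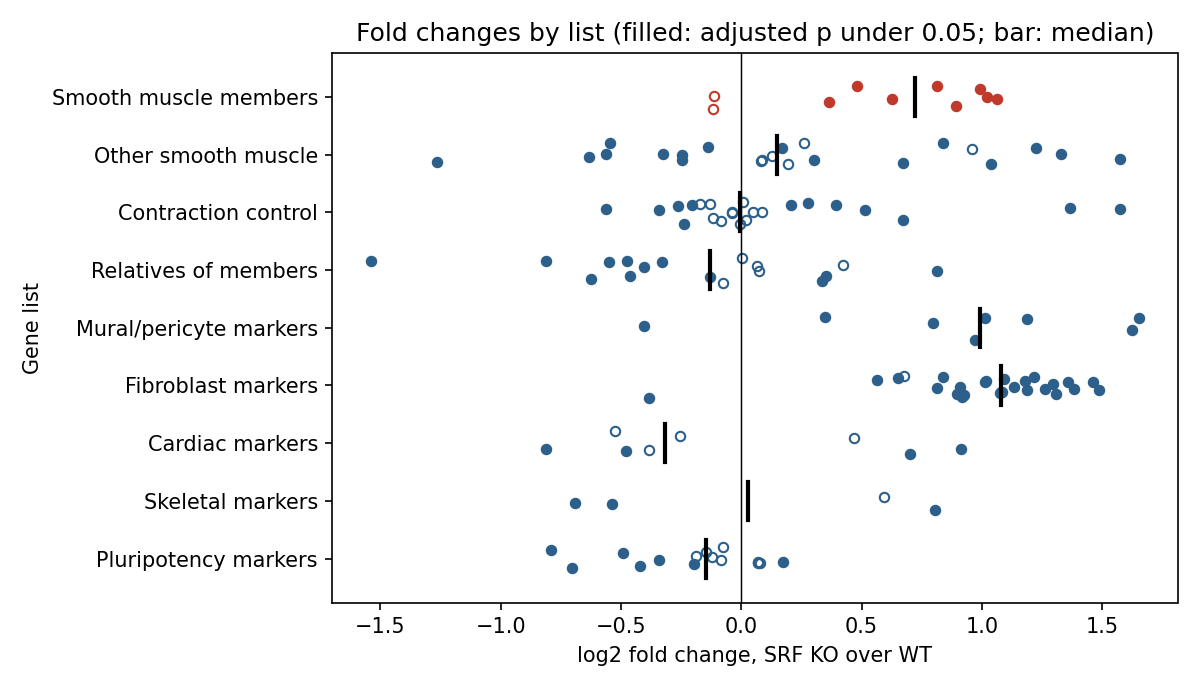
Log2 fold change of SRF KO over WT for each tested gene of 9 lists, with filled points past an adjusted p of 0.05 and a bar at each list's median. The lists of regulators and of primitive and visceral endoderm markers, the latter with a median of 3.64, are not drawn. The smooth muscle genes (red) have 8 filled points between 0.37 and 1.06 and 2 open points just left of 0, the fibroblast markers spread around their median of 1.08, and the further smooth muscle genes lie on both sides of 0.

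The genes whose log2 CPM followed Tagln most closely over the 6 libraries, of 12334 with a mean of at least 50 counts, were P4hb, Cdh2, Runx1, Fat1 and Sparc, with a Pearson r between 0.9995 and 0.9998. They rose by 0.61, 0.93, 2.36, 0.58 and 1.80 on the log2 scale. The libraries form separate groups, which alone makes such values high, and 5.15% of the genes compared had an r over 0.98 with Tagln.

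The coefficient of variation of the 10 genes ranged from 2.85% to 8.32% in SRF KO (median 6.14%), against 2.39% to 14.4% in WT (median 5.50%). It was smaller in SRF KO for 6 of the 10 genes.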

How the data were processed

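RNA of 3 SRF KO and 3 WT libraries was sequenced as 150 bp paired reads, and per the labels' protocols adaptor and low-quality reads were removed. The authors' deposited table holds whole-number counts per gene and repeat subfamily, without normalization. The build mm10 and the tool DESeq2 are named in the submitters' processing notes, without a role. The aligner, counting program, annotation and strand setting are not given in the sources used here. All 15611 entries left by filterByExpr (minimum count 10) were fitted together in R 4.3.3 with edgeR 4.0.16 (TMM, quasi-likelihood test), and DESeq2 1.42.0 was an alternative. Confidence intervals (95%) come from that fit. Each library was counted as 1 replicate. Replicate pairs had a chi-square per degree of freedom of 1.83 to 15.3, which does not show whether they are separate clones or cultures. The floor of 3 counts, 0.0828 to 0.117 CPM, was a chosen setting. Scripts were tested on simulated data. Shares and levels per kilobase used exon lengths of GENCODE M21.

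The 10 genes and the 10 other lists, typed from general knowledge, were chosen with earlier results of these data known. Named genes are the 10, Srf, their relatives, in each list at most 4 called genes, taken by lowest p, and the 5 most like Tagln. Others are said to have been chosen after their values were seen. A gene that this rule names is not reported here.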

Additional observations from a re-analysis of the deposited data

How the results depend on the processing

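Under other library scaling, DESeq2, no filter, gene entries alone and an adjusted p of 0.01, 8 of the 10 genes stayed higher and 0 lower. Replicate numbers were not taken as pairs: the correlations of same-numbered deviations were 0.0435, 0.358 and 0.218, and with a replicate block the counts were again 8 and 0, with a median log2 fold change of 0.72. Leaving out 1 library gave 8 higher each time and 0 to 1 lower, the 1 being Smtn without WT replicate 2, with medians between 0.66 and 0.76. With a minimum fold of 1 on the log2 scale there remained 2 of the 10 (Tagln and Myh11), with 817 of all genes higher and 260 lower. At an adjusted p of 0.01, 2013 of all genes were lower. Both are stricter by construction. Leaving out 1 library gave 2457 to 3652 of all genes higher and 2274 to 3809 lower. Without division by length, the share differences became 1.94 points for Cnn1, 3.97 for Tpm1 with Tpm2, 5.85 for Myl9 and 0.738 for Myh11. No scaling moved the median of all genes by over 0.1. Of the related lists, cardiac markers had 1 gene higher under DESeq2 and 1 to 2 when 1 library was left out, skeletal markers 1 to 2 higher, and pluripotency markers 0 to 1 higher and 5 to 10 lower, the 10 lower being found when WT replicate 2 was dropped. For these moves the cause was not tested. Low counts limit Lmod1, and Myocd could not be tested.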
